A study of Mus musculus with 12 samples.

Results

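CT26 is a mouse colorectal carcinoma line, and its cell libraries came in 3 same-numbered pairs of a DMSO and a midostaurin culture. The 2 libraries numbered 1 are described here against the 4 numbered 2 and 3, out of 12 libraries in the whole series. This split was chosen by measured values: earlier results of these data had shown the number 1 libraries lying apart at the interferon-inducible gene Ifi44, the stress kinase-like gene Trib3, the iron-carrier gene Lcn2, the matrix gene Thbs2 and the scaffold gene Ahnak. The contrast is therefore given as a description, with no test. The cells were labelled wild type (WT) and kept in DMEM with fetal bovine serum and antibiotics. Control cells received DMSO, the solvent, and treated cells received 1 µM of the multikinase inhibitor midostaurin for 48 h. The 6 other libraries came from CT26 tumors under the skin of mice, 3 from controls and 3 from mice given midostaurin at 40 mg/kg from day 7 after inoculation for 2 weeks. The labels do not say whether the 3 libraries of a group were separate cultures, whether a shared number marks a shared culture, or how the tumor-bearing mice were matched for strain, age or sex.

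Cells carry several stress and defence programmes that show as sets of genes moving together. Interferons act through their receptors and the STAT and IRF families of factors on genes with an interferon-stimulated response element, and the products of these genes block viruses and tune antigen presentation. Shortage of amino acids, among other stresses, leads to phosphorylation of the initiation factor eIF2 and translation of ATF4, which switches on amino acid transporters, amino acid synthesis and tRNA charging. NF-kB and C/EBP factors drive acute-phase and chemokine genes, TFEB and TFE3 drive lysosome genes through a CACGTG element, and E2F factors drive DNA replication genes.

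The elements named for 3 of these programmes are shown first, as examples of genes from either side of the number 1 split whose windows hold the letters. The stretches are from RefSeq (GRCm38.p6) and read 5′ to 3′ on the strand of the gene, and capitals mark matches on either strand. Ifit1 (chr19:34640740-34640853, plus strand) and Isg15 (chr4:156200836-156200936, minus strand) carry the interferon-stimulated letters GAAANNGAA, in part as matches that overlap one another. Trib3 (chr2:152344036-152344086, minus strand), Chac1 (chr2:119351009-119351096, plus strand) and Asns (chr6:7693185-7693272, minus strand) carry the amino acid response letters TGATGNAA. Ctsd (chr7:142387880-142388077, minus strand) carries CACGTG at 2 places. Other genes named below had no match to the letters searched for their programme in the same windows: Oasl2 and Irf7, Ddit3, Lcn2, Saa3, Cxcl1 and C3 (NF-kB letters), and Mcm2 and Tk1 (E2F letters).
Ifit1: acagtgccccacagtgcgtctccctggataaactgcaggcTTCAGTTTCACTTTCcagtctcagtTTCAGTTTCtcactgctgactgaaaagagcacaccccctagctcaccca
Isg15: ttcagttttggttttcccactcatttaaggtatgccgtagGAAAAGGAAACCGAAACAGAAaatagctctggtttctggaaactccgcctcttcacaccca
Trib3: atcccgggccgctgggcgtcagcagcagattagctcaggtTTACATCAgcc
Chac1: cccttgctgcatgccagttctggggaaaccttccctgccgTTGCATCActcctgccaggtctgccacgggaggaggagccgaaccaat
Asns: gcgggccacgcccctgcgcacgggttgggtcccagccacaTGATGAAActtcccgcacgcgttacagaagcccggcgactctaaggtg
Ctsd: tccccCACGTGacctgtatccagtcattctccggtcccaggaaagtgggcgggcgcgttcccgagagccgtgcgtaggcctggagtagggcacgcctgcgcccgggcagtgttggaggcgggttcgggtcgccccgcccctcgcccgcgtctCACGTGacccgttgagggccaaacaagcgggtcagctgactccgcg

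Levels are TMM-scaled CPM, the counts of a gene divided by the scaled total of its library, in the usual CPM unit. A difference is the mean log2(CPM + 0.5) of the number 1 libraries minus that of the other 4, a scale that understates the change of genes with few counts. A gene was called apart when this difference was at least 1.5-fold and the 2 sets of libraries did not overlap. Library totals were 34787389 to 38144039 counts. Of 14538 genes that passed a filter on low counts, 1606 were apart with higher levels in number 1 (11%) and 1508 with lower levels (10.4%). By the same rule 178 genes were higher in number 3 than in number 2 (1.22%) and 191 were lower (1.31%). With no overlap as the only condition, 9484 of the 14538 genes (65.2%) separated number 1 from numbers 2 and 3. Over the 10447 genes with a mean of at least 5 CPM, the median absolute difference was 0.27 between number 1 and the rest, and 0.09 between numbers 3 and 2. Between midostaurin and DMSO, 48 of these 10447 genes differed by 1.5-fold in pair 1 (0.459%), 44 in pair 2 (0.421%) and 50 in pair 3 (0.479%). Each pair is 1 library against 1 with no overlap condition, so these counts include the spread between libraries and follow another rule. The median absolute difference over these genes was 0.06 in each pair. By these medians the split by number was broader across genes than the difference between midostaurin and DMSO inside any pair. The filter asked for a minimum level in as many libraries as a treatment group holds, which is 3. A gene read only in the 4 libraries numbered 2 and 3 could pass it. One read only in the 2 libraries numbered 1 could not, so the filter treats the 2 directions unequally. The counts of genes apart, and the counts and medians over gene lists below, therefore describe these libraries only. Each list count below is to be read against these 11% upward and 10.4% downward. At the threshold, the smallest difference counted was 0.5851 and the largest one left out 0.5847, so genes near it lie on a continuous scale.

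**Figure D1:**
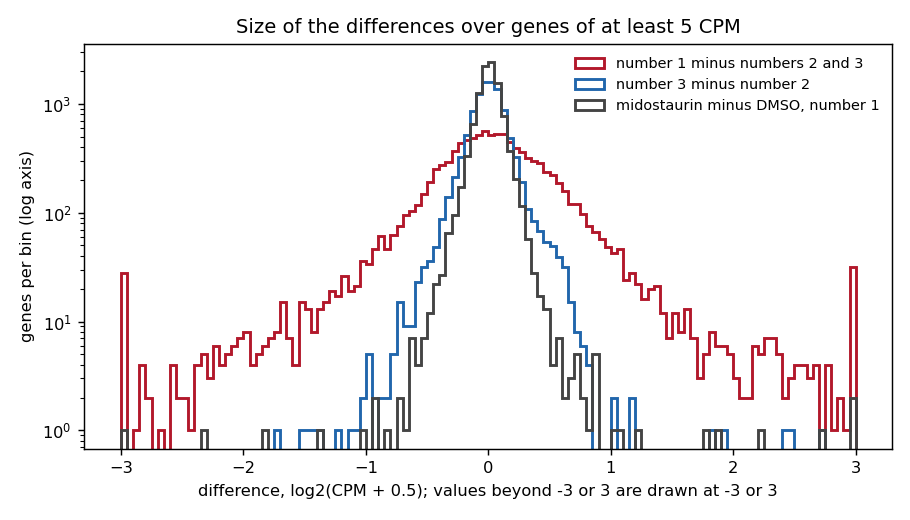
Histogram of log2(CPM + 0.5) differences over the 10447 genes of at least 5 CPM (x axis, log2; y axis, genes per bin, log axis). Number 1 minus numbers 2 and 3 (red) is the widest curve, number 3 minus number 2 (blue) is narrower and midostaurin minus DMSO within pair 1 (grey) is the narrowest.

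Of the 3114 genes apart, 2590 also passed 1.5-fold in the DMSO libraries alone and in the midostaurin libraries alone. Their shared direction in both treatments follows from the no-overlap condition and supports nothing further. Number 1 libraries also had a smaller share of counts from the mitochondrial genome, 4.68% and 4.72% against 6.02% to 6.23%, and from their 50 most abundant genes, 13.4% and 13.5% against 17% to 17.2%. The part of these shares in the gene differences was not tested. Across genes the difference had a Spearman rho of -0.12 with transcript length and -0.02 with GC content (10444 genes, which are not independent, from libraries that share these properties). With genes cut into 4 equal groups by length, its median went from 0.08 for the shortest to -0.06 for the longest.

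The 5 marker genes illustrate the size of the split. For the other 4 libraries, values are given in the order DMSO 2, midostaurin 2, DMSO 3, midostaurin 3. Ifi44 (chromosome 3, 151730922 to 151749960, minus strand, mm10) had 80.8 CPM in the DMSO and 80.5 CPM in the midostaurin library of number 1, against 1.5, 1.42, 1.16 and 0.564 CPM. Trib3 (chromosome 2, 152337422 to 152344032, minus strand) had 306 and 303 CPM against 23.9, 23.2, 26 and 21.6 CPM. Both genes separated number 1 from every other library, and the 2 treatments of number 1 lay within a few percent of each other. Ahnak (chromosome 19, 8989284 to 9076914, plus strand), a giant scaffold protein gene, had 1282 and 1284 CPM against 611, 617, 592 and 612 CPM. Lcn2 (chromosome 2, 32384633 to 32388252, minus strand), an acute-phase protein that binds bacterial iron carriers, had 2.29 and 2.79 CPM against 172, 170.4, 158 and 163 CPM. Thbs2 (chromosome 17, 14665500 to 14694235, minus strand), a matrix protein that restrains vessel growth, had 40.3 and 41.2 CPM against 382, 396, 325 and 324 CPM. None of the 5 overlapped between the sets, Ifi44, Trib3 and Ahnak being high in number 1 and Lcn2 and Thbs2 low. These 5 were known beforehand to lie apart, and 65.2% of all genes did not overlap either.

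**Figure D2:**
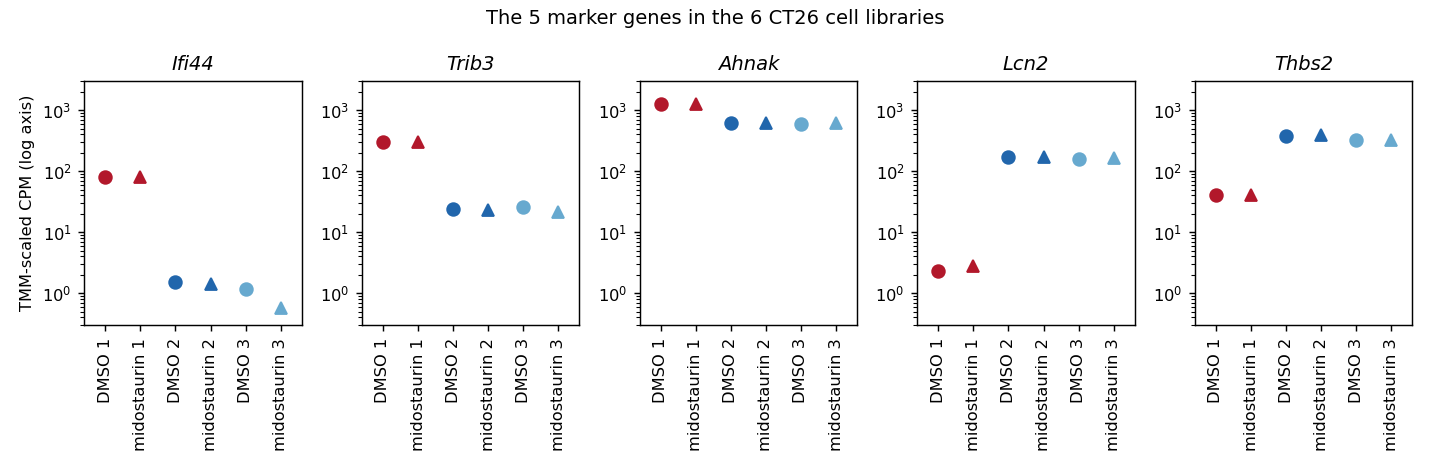
TMM-scaled CPM (log axis) of 5 marker genes in each of 6 cell libraries. Circles are DMSO and triangles midostaurin libraries. Number 1 (red) is apart from numbers 2 and 3 (blues) at every gene, above them for Ifi44, Trib3 and Ahnak and below for Lcn2 and Thbs2.

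Antiviral effectors of the interferon response were higher in number 1. Of 46 response genes listed, 43 passed the filter on low counts, 38 of these were apart upward, none was apart downward, and the median difference was 1.32 (all genes, -0.00). Ifit1, which binds foreign 5′ RNA ends, had 24.9 and 25.1 CPM in number 1 against 0.333, 0.335, 0 and 0.310 CPM. Isg15, a ubiquitin-like modifier, had 46.9 and 47.1 CPM against 4.08, 3.24, 2.70 and 3.39 CPM. Oasl2, of the oligoadenylate synthetase family, had 102 and 99.8 CPM against 7.07, 7.36, 5.14 and 5.02 CPM. For each of the 3, all 4 other libraries were low and close together. Irf7, the factor that amplifies interferon transcription, differed by 3.62, with 38.7 and 38.5 CPM in number 1 against 3.61, 3.07, 1.77 and 2.54 CPM. The oligoadenylate synthetase genes resemble one another, so counts among them are uncertain. Among the 5 response genes not called apart, Stat2 differed by 0.53 and the viral tether Bst2 by 0.36.

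GTPases that interferon-gamma induces, which attack vacuoles holding pathogens, were also higher, with 12 of 15 apart upward, none downward, and a median of 1.6. Irgm2 had 32.4 and 32.2 CPM in number 1 against 5.16, 6.44, 4.04 and 4.51 CPM, while Gbp2 had 15.0 and 13.1 CPM against 16.6, 14.1, 13.6 and 14.4 CPM. Irgm2 did not overlap between the sets, and Gbp2 did. The ligands, receptors and sensors upstream were not shifted as a list, with 3 of 21 apart upward, 1 downward and a median of -0.03. The DNA sensor Cgas differed by 0.79 and the receptor chain Ifnar1 by -0.68, and Ifnb1, encoding interferon-beta, was at 0 counts in 5 of the 6 libraries and at 2 in the remaining one. In class I antigen presentation 3 of 13 genes were apart upward and 1 downward, with a median of 0.18. The peptide pump gene Tap1 differed by 1.39 and the immunoproteasome gene Psmb9, at a low level, by 1.14. With 12 libraries scaled together, Psmb9 had 3.29 and 2.99 CPM in number 1 against 1.69, 1.28, 1.02 and 0.774 CPM. Psmb8, also of the immunoproteasome, had 1.21 and 1.91 CPM against 1.17, 0.847, 1.14 and 0.856 CPM. The light chain B2m differed by -0.14, and Nlrc5, the transcription activator of class I genes, by -0.68.

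The letters GAAANNGAA stood in 43.59% of 39 promoter windows of the interferon response genes and in 83.33% of 12 windows of the GTPase genes. They stood in 7.11% of 12540 windows of genes that passed the filter and in 8.56% of all 32851 windows. Each window ran from 250 bases before to 50 bases after a RefSeq start, and RefSeq windows were matched for 31 of 43 response genes and 11 of 15 GTPase genes. These motifs were chosen after the values were seen, and a match is only a run of letters. Here and below, the shares cover all list members that passed the filter, whatever their difference. They therefore describe the lists and not the split.

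Regulators of the integrated stress response were higher in number 1, with 13 of 18 apart upward, 3 downward and a median of 1.18. Atf4, the factor in the middle of the pathway, had 862 and 847 CPM in number 1 against 391, 398, 425 and 418 CPM. Chac1, an ATF4 target that degrades glutathione, had 103 and 106 CPM against 8.46, 7.25, 9.50 and 7.53 CPM. Ddit3, the CHOP factor, had 171 and 175 CPM against 34.7, 37.6, 37.3 and 35.7 CPM. All 3 were high in both number 1 libraries with no overlap, a condition that 65.2% of all genes met in 1 direction or the other. The stress-induced regulator Nupr1 differed by 2.61, and the PERK kinase gene Eif2ak3 by -0.66. Cebpb, a C/EBP factor that also drives acute-phase genes, differed by -1.55. The GCN2 kinase gene Eif2ak4, whose product senses uncharged tRNA, differed by 0.35 and was not called apart.

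Amino acid supply genes stood on the same side. Of amino acid transporters that passed the filter 8 of 14 were apart upward and 1 downward (median 1.05), and of amino acid and one-carbon synthesis genes 15 of 17 were apart upward and none downward (median 1.94). Slc7a5, the large neutral amino acid carrier, had 548 and 567 CPM in number 1 against 76.9, 81.3, 83.1 and 83.7 CPM. Asns, which makes asparagine, had 693 and 688 CPM against 133, 139, 137 and 132 CPM. Pycr1, which makes proline in mitochondria, had 16.9 and 15.0 CPM against 0.416, 0.530, 0.610 and 0.536 CPM. Each of these 3 genes was several-fold higher in number 1 than in any other library. The mitochondrial folate enzymes Aldh1l2 and Mthfd2 differed by 3.30 and 2.68, and Phgdh, the first enzyme of serine synthesis, by 1.53. The arginine and lysine carrier Slc7a3 went the other way by -1.28, and the glutamine synthetase gene Glul differed by -0.34 without being called apart.

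Cytosolic tRNA synthetase genes were higher for 15 of 20, with none apart downward and a median of 1.25. Wars, for tryptophan, had 198 and 194 CPM in number 1 against 56.5, 57.8, 55.6 and 54.0 CPM, and Qars, for glutamine, had 134 and 137 CPM against 144, 149.6, 149 and 145 CPM. Wars was high in number 1 while the Qars values lay within a narrow band in all 6 libraries. The unfolded protein response of the endoplasmic reticulum, which shares the PERK and ATF4 branch, had 2 of 21 genes apart upward, Herpud1 at 1.23 and Atf6 at 1.04, and none downward, with a median of -0.13, against 11% upward and 10.4% downward over all genes. Its chaperone Hspa5 had 835 and 852 CPM in number 1 against 756, 765, 754 and 769 CPM. The letters TGATGNAA stood in 41.67% of 12 windows of the tRNA synthetase genes, 22.73% of 22 windows of the regulators, 23.53% of 17 windows of the synthesis genes and 14.29% of 14 windows of the transporters. Their share was 2.26% of windows of genes that passed the filter and 3.97% of all windows.

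**Figure D3:**
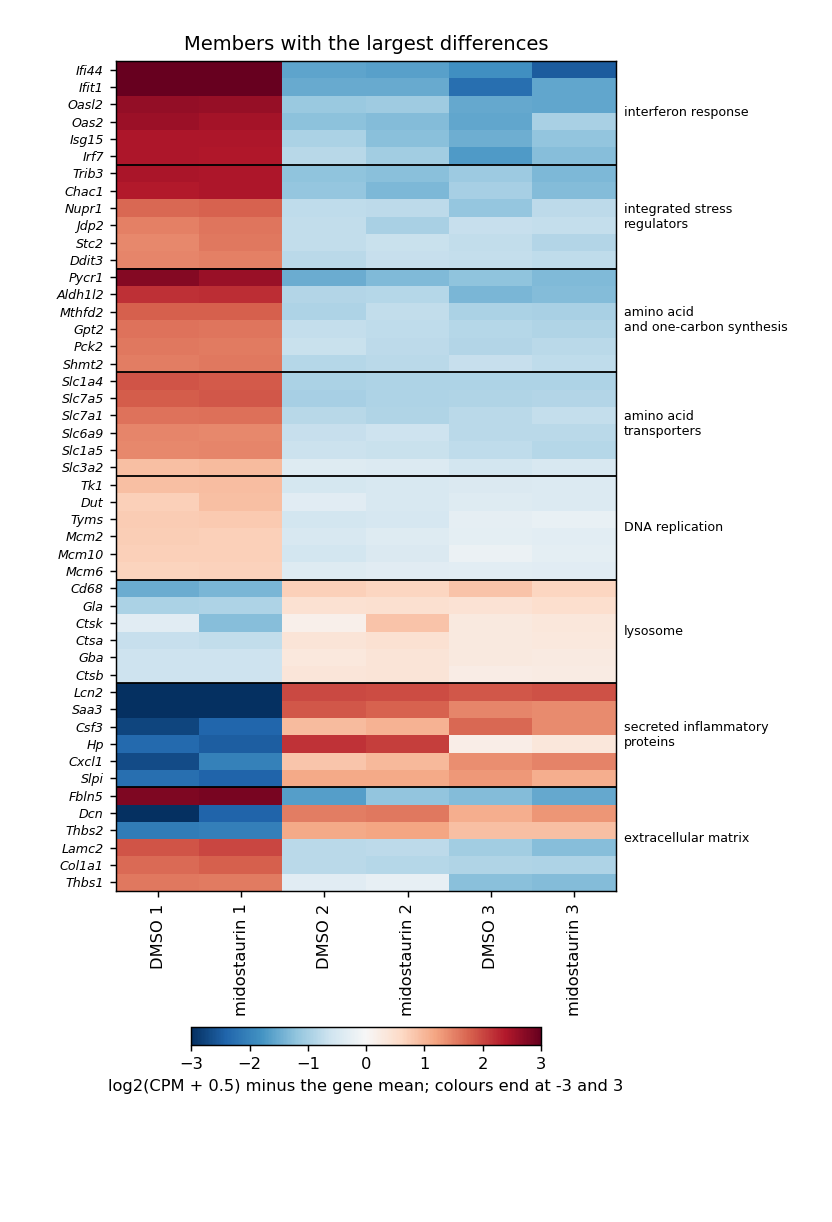
Centred log2(CPM + 0.5) in 6 cell libraries of the 6 members with the largest absolute difference, at a mean of at least 1 CPM, in each of 8 gene lists, colours ending at -3 and 3. The number 1 columns are red for interferon, stress, amino acid and replication genes and blue for lysosome and secreted inflammatory genes, with matrix genes in both colours.

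DNA replication genes were higher in number 1 by smaller amounts, with 25 of 49 apart upward, 1 downward and a median of 0.60. Tk1, the thymidine kinase of S phase, had 94.2 and 95 CPM against 34.5, 35.9, 36.9 and 37.6 CPM. Mcm2, of the replicative helicase, had 244 and 244 CPM against 105, 113, 121 and 119 CPM. The clamp gene Pcna had 281 and 294 CPM against 225, 234, 248 and 245 CPM. None of the 3 overlapped, like 65.2% of all genes, and Pcna missed the 1.5-fold rule at a difference of 0.27. The same list had a median of 0.21 between numbers 3 and 2. Mitosis genes had 7 of 31 apart upward and none downward, with a median of 0.42, which was below their median of 0.57 between numbers 3 and 2. The mitotic factor Foxm1 had 360.3 and 372 CPM in number 1 against 144, 153, 203 and 209 CPM, and the spindle checkpoint gene Cdc20 had 180.5 and 182 CPM against 165, 168, 251 and 268 CPM. The number 1 values of Foxm1 were the highest, while those of Cdc20 lay between numbers 2 and 3. E2F letters TTNGCGC stood in 37.5% of 48 windows of the replication genes against 10.7% of windows of genes that passed the filter and 6.36% of all windows.

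Growth-related genes of MYC and ribosome biogenesis had 12 of 24 apart upward, 1 downward and a median of 0.58, beside 0 of 36 ribosomal protein genes in either direction and a median of 0.04. Myc itself had 198 and 207 CPM in number 1 against 55.6, 55.4, 76.5 and 78.6 CPM. Odc1, which makes polyamines and is a classic MYC target, had 845 and 844 CPM against 3177, 3139, 3295 and 3269.7 CPM. The 2 genes lay on opposite sides of the split without overlap. Among YAP and TAZ targets, which respond to cell shape and density, 11 of 18 were apart upward and none downward (median 1.04). Ccn1, a secreted matricellular protein of this set, had 235 and 240.1 CPM against 23, 26.7, 29.5 and 32.1 CPM, and Ankrd1 differed by 0.33.

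Lysosome genes were lower in number 1, with 16 of 38 apart downward, none upward and a median of -0.54. Ctsd, the aspartic protease cathepsin D, had 425 and 423 CPM against 839, 874, 760.3 and 768 CPM. Gla, alpha-galactosidase A, had 48.3 and 49.1 CPM against 129, 130.5, 128 and 134 CPM. Both were low in number 1 without overlap, and Ctsd shares 34.4% of its exon bases with another annotated gene on the same strand. The lysosomal membrane protein gene Cd68 differed by -2.15 and the protease gene Ctsb by -0.93. The membrane protein gene Lamp1 differed by -0.56 and was not called apart. In the proton pump that acidifies lysosomes 4 of 15 genes were apart downward and none upward (median -0.44), Atp6v0d1 differing by -0.93. In autophagy 7 of 22 genes were apart downward and 1 upward (median -0.25). Map1lc3b, the LC3B coat of autophagosomes, had 222 and 218 CPM against 552, 543, 547 and 556 CPM, and Sqstm1, the p62 cargo receptor, had 1017 and 1047 CPM against 685, 693, 685 and 679 CPM. Map1lc3b was low and Sqstm1 high in number 1. CACGTG stood in 35.29% of 34 windows of the lysosome genes, 30.77% of 13 of the pump genes and 13.04% of 23 of the autophagy genes, against 9.87% of windows of genes that passed the filter and 7.15% of all windows.

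Secreted inflammatory proteins were lower in number 1. Of 49 listed, 25 passed the filter, 18 of these were apart downward, 2 upward, and the median was -1.70. Saa3, an acute-phase protein, had 0.645 and 0.421 CPM against 35.1, 33.2, 26.8 and 25.6 CPM. Cxcl1, which attracts neutrophils, had 2.27 and 3.84 CPM against 31.1, 34.4, 46.3 and 49.1 CPM. The complement protein C3 had 15.6 and 17 CPM against 134, 147, 133 and 136 CPM. All 3 were low in both number 1 libraries. The granulocyte growth factor Csf3 differed by -3.87. Il6 stood at 0.258 and 0.105 CPM against 0.749 to 1.1 CPM, a low level in all 6 libraries. The 2 on the other side were Csf1, the macrophage growth factor, with 932 and 975 CPM against 225, 217, 191 and 190.2 CPM, and Ccl9, which differed by 0.82.

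Genes of the NF-kB pathway and its targets were mixed, with 8 of 22 apart downward, 3 upward and a median of -0.36. The feedback inhibitor Nfkbia differed by -1.57 and Bcl3 by -2.35, whereas the adhesion gene Vcam1 differed by 1.36 and the inhibitor Tnfaip3 by 1.14. The subunit gene Rela had 144 and 150.1 CPM in number 1 against 139, 138, 153 and 163 CPM, with the sets overlapping. The letters GGGNNTTCC stood in 4.35% of 23 windows of the secreted protein genes and 35.0% of 20 windows of the NF-kB list, against 7.23% of windows of genes that passed the filter and 5.82% of all windows.

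**Figure D4:**
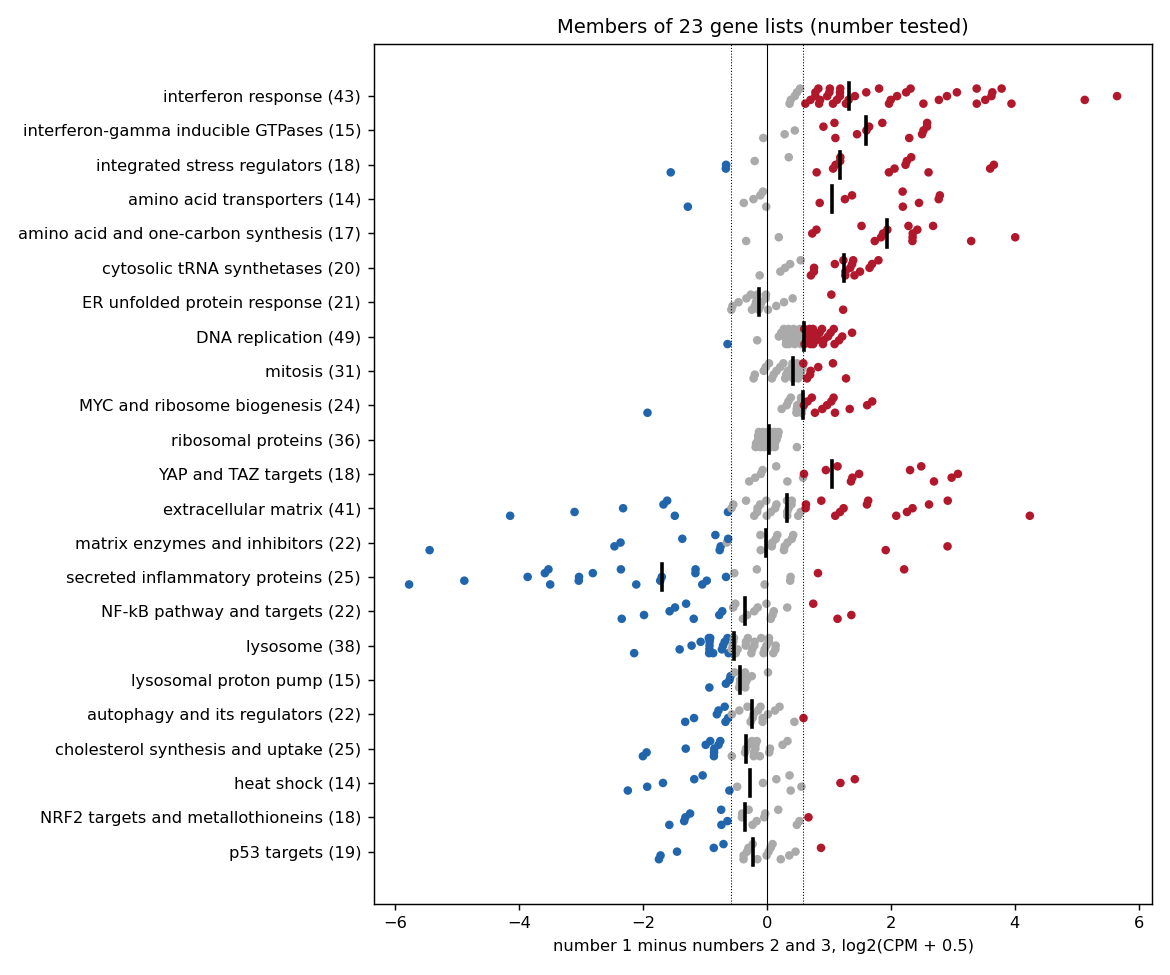
Difference between number 1 and numbers 2 and 3 (x axis, log2) for each member, passing the filter on low counts, of 23 gene lists. Red points are apart upward, blue points apart downward, grey points neither, black bars are list medians and dotted lines 1.5-fold. Interferon response members lie right of 0, most secreted inflammatory members lie left, and ribosomal protein members sit near 0.

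The extracellular matrix was divided rather than shifted. Of 56 genes listed 41 passed the filter, 14 were apart upward and 7 downward (median 0.33). Fbln5, which assembles elastic fibres, had 59.9 and 62.1 CPM in number 1 against 2.25, 3.32, 3.02 and 2.51 CPM. Col1a1, a chain of type I collagen, had 255 and 271 CPM against 44.7, 43.3, 41.3 and 40.9 CPM. Fn1, fibronectin, had 858 and 881 CPM against 4437, 4526, 4197 and 4274 CPM. Thus Fbln5 and Col1a1 were high, and Fn1 low, in number 1. Within the thrombospondins Thbs1 differed by 2.35, opposite to Thbs2 at -3.11, and the collagen-binding proteoglycan gene Dcn differed by -4.15. Among matrix enzymes and their inhibitors 2 of 22 were apart upward and 8 downward (median -0.01). Mmp3, stromelysin, had 0.335 and 0.5 CPM against 30.0, 35.1, 49.5 and 46.0 CPM, and the lysyl oxidase relative Loxl4 had 153 and 142 CPM against 39.9, 41.1, 38.3 and 35.8 CPM. Of the scaffold and cytoskeleton genes 7 of 26 were apart upward and 3 downward (median 0.19), with the actin crosslinker Flnc at 1.40 beside Ahnak at 1.08, and the focal adhesion gene Zyx at -1.76. Ahnak2, of that list, had 64.4 CPM in both number 1 libraries against 133, 125, 108 and 107 CPM (12 libraries scaled together).

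By size alone, the 10 largest differences upward among named genes of at least 5 CPM were Ifi44, Ifit1, Cdh26, Fbln5, Cdsn, Pycr1, Apol9b, Oasl2, Oas2 and Ogn. Among the 10 largest downward were Lcn2, Mmp3, Ccr1, Saa3, Dio2, Id3, Krt23, Gprc5b and Dcn. Id3, an inhibitor of helix-loop-helix factors, had 9.38 and 7.62 CPM in number 1 against 174, 175, 193 and 197 CPM. Krt23, a keratin gene, had 0 counts in both number 1 libraries and 7.77, 6.97, 11.7 and 10.8 CPM in the others, at least 119-fold lower against a floor of 3 counts per library. Cdh26, a cadherin gene, had 67.5 and 74.4 CPM against 3.19, 3.37, 1.13 and 0.621 CPM. The 3 genes show a split of more than an order of magnitude in genes outside the lists. Apol9b has a close copy, Apol9a, and counts between them are uncertain.

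Other programmes were lower, mixed or little shifted. Cholesterol synthesis and uptake had 10 of 25 genes apart downward and none upward (median -0.34), with the synthase gene Hmgcs1 at -1.31 and the exporter gene Abcg1 at -2.01. Fatty acid synthesis had 0 of 12 either way (median -0.13). Heat shock genes had 6 of 14 downward and 2 upward (median -0.27), the inducible chaperone Hspa1b, a near copy of Hspa1a, at -2.25 and the mitochondrial chaperone Hspd1 at 1.19. The NRF2 and metallothionein list had 7 of 18 downward and 1 upward (median -0.35), with the ferritin chain Fth1 at -1.58 and the metal-binding protein Mt1 at -1.34. Hypoxia and glycolysis had 5 of 26 upward and 6 downward (median -0.14), the carbonic anhydrase gene Car9 standing at 2.3. Of p53 targets 5 of 19 were downward and 1 upward (median -0.23), and the cell cycle inhibitor Cdkn1a differed by -0.23. Immediate early genes had 6 of 21 downward and 3 upward (median -0.23), and ERK output genes 5 of 15 downward and 3 upward (median 0.13). Genes of glucose and growth factor withdrawal had 6 of 15 downward and 1 upward (median -0.06). Clock genes had 4 of 16 downward and 2 upward (median -0.30), the output factor Dbp at -1.64 and the repressor Ciart at 2.22. Nuclear and host noncoding RNAs had 3 of 10 upward and 1 downward (median 0.29), Malat1 being the one downward at -1.22. Mitochondrially encoded mRNAs had 2 of 13 downward and none upward (median -0.29), with mt-Co3 at -0.72, and nuclear respiratory chain genes had 1 of 24 upward (median 0.12). Of the replication-dependent histones, whose main mRNAs lack poly(A) tails, 5 passed the filter and 1 was apart, downward.

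Markers of other cells and of the line were examined beside these values. Of 16 macrophage markers 4 passed the filter, and Adgre1, C1qa, C1qc and Tyrobp had 0 counts in all 6 libraries. The summed macrophage level was 22.7 and 25 CPM in number 1 and 126 to 151 CPM in the others, of which Cd14 was 20.2 and 21.6 CPM and 123 to 148 CPM. The summed lymphocyte level was 0.289 to 0.581 CPM and the endothelial level 0.5 to 2.09 CPM over the 6 libraries. Fibroblast and pericyte markers summed to 1615 and 1633 CPM in number 1 and 860 to 1061 CPM in the others, and Thy1 was at 0 counts in all 6. Most of this sum was Col1a2, at 1285 and 1284 CPM in number 1 and 747 to 934 CPM in the others. Of the 7 markers that passed the filter 4 were apart upward and 2 downward, the latter Dcn at -4.15 and the receptor Pdgfra at -1.11. Whether fewer cells of a type or less RNA per cell lay behind a level cannot be told apart in bulk RNA. The part of these levels in the gene differences was not tested. Of 16 epithelial and colon markers, 6 passed the filter, 1 was apart upward and 1 downward, with a median of -0.42. The defining epithelial markers Epcam and Krt19 had 0 counts in all 6 libraries, although the label names a colorectal cancer. The intestinal keratin Krt20 had 10.8 and 9.86 CPM in number 1 against 52.0, 54.3, 53.9 and 52.6 CPM, and Krt7 had 3.27 and 3.05 CPM against 0.305, 0.614, 0.407 and 0.677 CPM. These 2 keratins lay on opposite sides of the split, while Krt18 differed by 0.19 and the intestinal factor Cdx2 by -0.63, neither being called apart. The tumor suppressor genes Cdkn2a and Cdkn2b and the Y-linked Ddx3y, Kdm5d, Uty and Eif2s3y also had 0 counts in all 6 libraries.

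The interaction of treatment with number 1 does not use the contrast that set number 1 apart, so it was fitted across all genes. Number 1 holds 1 library of each treatment, and the fit assumes that these lone libraries vary like those of numbers 2 and 3. The fit also leaves out the pairing by number, under which same-numbered libraries deviated together. The edgeR quasi-likelihood test found 0 of 14538 genes (0%) at an adjusted p under 0.05, and 223 at an unadjusted p under 0.05, which is 1.53% of genes. The smallest adjusted p was 1. With 1 pair against 2 pairs, and with calls that differ between fits with and without the block, this does not show that the drug acted alike. The genes of smallest p were Gm37422, Dnah10, Gm20458, Srcap and mt-Ta. With the replicate number as a block, edgeR called 8 genes, Yy2, Srcap, Gm20458, Lrch4, Gm42715, mt-Ta, Gm49380 and Mast4, with a smallest adjusted p of 0.00208, and DESeq2 called Yy2 and Srcap. Srcap, a chromatin remodeller, had 35.6, 101.7 and 100.9 CPM in DMSO 1, 2 and 3 and 59.1, 95.9 and 90.8 CPM in midostaurin 1, 2 and 3. Only the number 1 libraries differed by more than 1.5-fold there. Of the 8 genes 6 share exon bases with another gene on the same strand, from 61.7% for Srcap to 100% for Yy2 and Gm20458, so their counts depend on how reads were divided. Leaving out DMSO 2, midostaurin 2 or midostaurin 3 gave 2, 1 and 5 calls, and leaving out DMSO 3 gave 0.

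**Figure D5:**
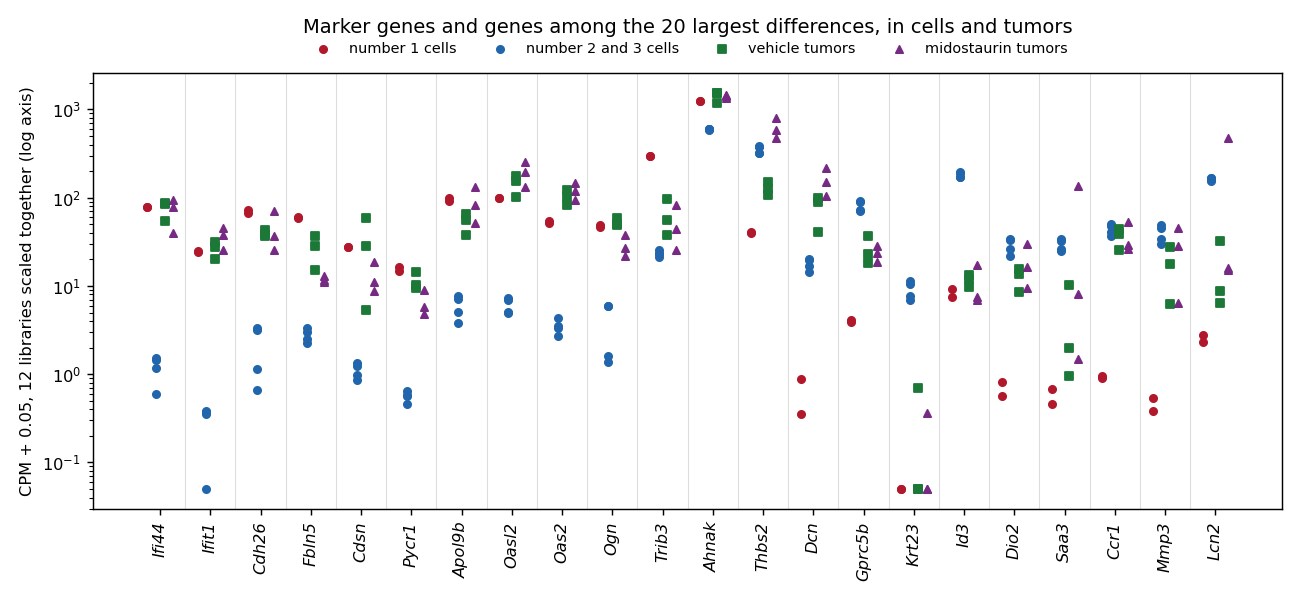
Level (CPM + 0.05, log axis, 12 libraries scaled together) of the 5 markers and of genes among the 20 largest differences in number 1 cells (red circles), number 2 and 3 cells (blue circles), vehicle tumors (green squares) and midostaurin tumors (purple triangles). Control tumors lie near number 1 at Ifi44 and Id3, and between the sets at Trib3 and Thbs2.

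Tumors were not used to choose the split, and their levels are given side by side, without a test, after scaling all 12 libraries together. Tumors also hold host cells, so a level there cannot be assigned to the cancer cells. Of the 20 largest differences, the mean log2 level of control tumors lay between the sets and nearer number 1 for 10 genes, nearer numbers 2 and 3 for 5, and above both for 5. The 2 directions differed. Of genes higher in number 1, 6 were nearer number 1 and 4 above both. Of genes lower in number 1, 4 were nearer number 1, 5 nearer numbers 2 and 3, and 1 above both. Ifi44 had 87.3, 84.1 and 54.8 CPM in the control tumors and 93.9, 39.9 and 78.6 CPM in the midostaurin tumors, all nearer on a log scale to number 1 cells than to the others. Id3 had 13.3, 9.79 and 11.9 CPM, and 6.94, 17 and 7.5 CPM, also close to number 1. Trib3 had 37.7, 96.3 and 56.0 CPM, and 43.7, 25.3 and 82.3 CPM, below number 1 in every tumor. Thus neither set of cultures was the nearer one at every gene. Lcn2 had 8.82, 32 and 6.34 CPM in control tumors and 14.9, 479 and 15.8 CPM in midostaurin tumors, where 1 tumor stood far above the rest. Thbs2 had 126, 108 and 151 CPM in control tumors and 588, 795 and 479 CPM in midostaurin tumors, all 3 of the latter above both sets of cells.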

How the data were processed

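Poly(A) RNA extracted with TRIzol was made into strand-specific libraries (NEBNext Ultra II Directional kit), per the labels' protocols. The authors deposited unnormalized counts, all whole numbers (possibly rounded from estimates), for 55335 Ensembl identifiers, in 1 table for the 6 cell libraries and 1 for the 6 tumor libraries. The submitters' processing notes name FastQC 0.11.2, Bowtie2 2.3.4, RSEM and mm10. Because RSEM estimates how reads that fit several genes are shared, counts of overlapping genes and close copies are uncertain. The RSEM version, annotation and strand setting are not given in the sources used here. Value columns matching no group numbered 0. One column of a midostaurin tumor carries a number that the labels do not use and was used as a midostaurin tumor without a number.

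From the deposited counts, genes were filtered with filterByExpr and libraries scaled by TMM in edgeR 4.0.16 (R 4.3.3). CPM used these scaled totals, with a pseudocount of 0.5 before log2. The interaction was tested with edgeR's quasi-likelihood test (treatment, number 1 against the rest, and their interaction; Benjamini-Hochberg over all 14538 genes, threshold 0.05), which was checked on simulated data. DESeq2 1.42.0 was an alternative. The p-values measure only the spread between these libraries, which may be technical. Total counts of 34787389 to 38144039 per cell library set the precision.

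Deviations of same-numbered libraries from their group means correlated across genes at 0.961, 0.879 and 0.847, and numbers 2 and 3 correlated at 0.641 and 0.659 across treatments. Number 1 correlated with numbers 2 and 3 at -0.835 to -0.861. The group means include number 1, so its distance from the rest enters all these correlations. They are therefore no separate support for the split or for a shared culture. The numbers come from the labels, which do not say whether they mark pairs, so the block is an alternative. The members, the 43 gene lists and the markers were chosen with earlier results of these data known. Named genes were the 5 markers, the 10 largest differences per direction among genes of at least 5 CPM without overlap (predicted genes left out), up to 6 per list with the largest absolute difference at a mean of at least 1 CPM, and, for the interaction, the called genes or the 5 smallest p. Other list members, such as Gbp2, Glul, Qars, Pcna, Cdc20 and Rela, were named after their values were seen, to show members that were not apart. Some genes that this rule names are not reported here. Gene positions are from GENCODE on mm10. Other settings tried were DESeq2 size factors, total counts, other pseudocounts and folds, no filter, a reference of 1 number, 1 treatment at a time, and leaving out each library.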

Additional observations from a re-analysis of the deposited data

How the results depend on the processing

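The counts of genes apart in number 1 (1606 higher, 1508 lower) became 592 and 564 at 2-fold and 4805 and 4679 with no overlap as the only condition. At a mean of at least 5 CPM 1202 were higher and 896 lower. Total counts in place of TMM gave 1742 and 1434, and leaving out 1 library gave 1620 to 1691 higher and 1539 to 1637 lower. List medians at least 1.5-fold higher numbered 9 (8 to 10 without 1 library). Those at least 1.5-fold lower numbered 2 (1 to 2), the single 1 arising without DMSO replicate 3. The 2 lower lists were secreted inflammatory proteins (median -1.70) and endothelial markers (median -0.61). Of the endothelial markers only 2 genes passed the filter and 1 was apart, at low levels. The interaction gave 0 calls, 0 with relative log expression scaling, 0 without the filter (427 at an unadjusted p under 0.05), 2 with DESeq2, 0 to 5 without 1 library of numbers 2 and 3, and 8 with the replicate block. The cause was not tested. Leaving out a number 1 library leaves no interaction to fit. Of the differences of named genes over these settings 3393 moved by less than the spread between libraries, 233 moved by more, and 4 changed sign. The sign changes were Gm37422 (-0.026), Dnah10 (0.062) and Gm20458 (0.445) with the DMSO libraries alone, and Gm20458 without midostaurin replicate 1, in a range of -2.648 to 0.916 over leaving out each library. Of list medians 311 stayed within that spread, 33 moved by more and 0 changed sign.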

Other observations

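Some genes outside the lists were picked after their values were seen, so they stand for themselves and not for a pathway. Bmp2, a secreted ligand of bone morphogenetic protein signalling, had 2.68 and 1.89 CPM in number 1 against 49.5, 52.1, 39.9 and 34.0 CPM in DMSO 2, midostaurin 2, DMSO 3 and midostaurin 3. Id1, an inhibitor of helix-loop-helix factors like Id3, had 12.0 and 13.3 CPM against 101, 102, 106 and 102 CPM, and Id2 had 3.48 and 4.71 CPM against 72.4, 72.8, 58.0 and 54.7 CPM. All 3 genes were low in both number 1 libraries. Smad6 and Smad7, inhibitors in the same signalling, differed by 1.05 and 0.12 on the log2(CPM + 0.5) scale.

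Values of 2 receptor genes that the naming rule picked follow. Il1rl1, the receptor for interleukin-33, had 206 and 207 CPM in number 1 against 995, 978, 1019 and 994 CPM. Ccr1, a chemokine receptor, had 0.928 and 0.868 CPM against 41.2, 37.4, 51.6 and 49.3 CPM. Both were low in both number 1 libraries.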
